A study of Homo sapiens with 3 samples.

Results

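The genes described here were 10 established p53 targets, TP53I3, FDXR, TRIAP1, SPATA18, PHLDA3, PLK2, PLK3, AEN, ZMAT3 and RPS27L, chosen by name as those left after the arrest inhibitors and the feedback, apoptosis and repair families of p53 targets were set apart, although some of them, such as AEN, TRIAP1 and RPS27L, also have roles near those families. They were 10 of 27269 gene names with a value on all arrays, and they were measured by 12 probes. All 12 probes were well above background on all 3 arrays, none of their spots was saturated, and none was marked as an outlier. RNA came from HepG2, an established human hepatocarcinoma line with wild-type p53. The control cells received 0 μM etoposide. The labels call them untreated, whereas the study's table of array results gives ratios over DMSO. The other cells received etoposide at 10 μM (the low dose) or 100 μM (the high dose), each for 30 h. The control is also labelled 30 h. Etoposide traps topoisomerase II on DNA and so produces double-strand breaks. The study used the doses to favor senescence (low) or apoptosis (high), and asked of its arrays which transcripts differ between them. There was 1 array per condition, so the fold changes below are without replicates and without p-values. In bulk RNA of this kind, fewer cells of a type and less RNA per cell cannot be told apart.

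When p53 is stabilized it binds response elements made of paired half-sites near its target genes and raises their transcription. The targets described here carry its effects into mitochondria and redox balance, into kinase signaling, and into RNA and ribosome biology. They are less often discussed than the arrest and death genes, and several are used as readouts of p53 activity because they respond in many cell types.

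The arrays were of similar quality. Between 19835 and 20150 probes per array were well above background, and the 75th percentile of the probe signals was 514.2 for control, 536.6 for the low dose and 432.8 for the high dose. Each signal was divided by that percentile of its array before a fold change was taken. All 8 liver markers (among them ALB and AFP) were well above background on all arrays, with a summed signal of 235000 to 256500. Of 8 markers of leukocytes, endothelium and fibroblasts, 3 (COL1A1, COL1A2 and DCN) were not well above background on any array, and the 8 together summed to 1236 to 1635. Their part in the results was not tested.

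The promoters of the 10 genes were searched for the p53 half-site consensus, a motif of 10 bases that reads the same on both strands. Windows of 300 bases (250 before and 50 after each start, RefSeq, GRCh38.p14) were listed for 9 of the 10 genes. PHLDA3 was not listed. An exact half-site was present for 4 of the 9 genes, whereas 6.63% of all 35116 windows hold one (8.06% of the symbols in any of their windows). Among 24 other p53 targets with a window, 3 held one. A single half-site is not the paired element described above, and binding of p53 at these sites was not tested. The 9 genes were also chosen as p53 targets. The window of RPS27, the paralog of RPS27L whose signal is given further on, also held an exact half-site, 31 bases after its start. The 4 stretches of 30 bases are shown because they hold the exact matches among the 10 genes. Capitals mark the half-site, and each is written 5′ to 3′ on the strand of its gene.
FDXR (minus strand, chr17:74872986-74873015): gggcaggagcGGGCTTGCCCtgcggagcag
AEN (plus strand, chr15:88621296-88621325): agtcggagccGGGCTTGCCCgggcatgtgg
PLK2 (minus strand, chr5:58460199-58460228): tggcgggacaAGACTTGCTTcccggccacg
RPS27L (minus strand, chr15:63157517-63157546): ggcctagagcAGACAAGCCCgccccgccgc
The half-site began 11 bases before the start for FDXR, 34 for AEN, 59 for RPS27L and 132 for PLK2. FDXR and AEN held the same 10 letters. The second window listed for FDXR held none, and the windows of TP53I3, TRIAP1, SPATA18, PLK3 and ZMAT3 held none, which says only that these letters are not in those 300 bases.

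All 10 genes were above control at both doses, as were 45.2% of all genes tested at the low dose and 56.8% after the high dose. The latter share was 37.9% when unscaled, 35.3% when scaled to the median and 43.5% when scaled to the spike-ins. After the low dose all 10 exceeded control by more than 2-fold, compared with 3.37% of 16714 genes well above background on at least 1 of the arrays compared. More than 3-fold increases were found for 6 of the 10 (PLK2, TP53I3, PHLDA3, PLK3, FDXR and ZMAT3), against 1.29% of all genes tested. After the high dose 7 of the 10 exceeded control by more than 2-fold, against 6.72% of 16977 genes, and 3 of the 10 (PLK2, PHLDA3 and TP53I3) exceeded it by more than 3-fold, against 1.84%. The median log2 fold change of the 10 genes was 1.75 after the low dose and 1.35 after the high dose, whereas the median of the 15178 genes well above background on all arrays was -0.03 and 0.08. With the mean of all probes in place of the brightest, AEN was just under 2-fold at the low dose (log2 0.98). With normexp background correction AEN and RPS27L were just under 2-fold at the low dose (log2 0.93 and 0.97) and ZMAT3 at the high dose (0.91), and PLK3 was so at the high dose with scaling to the median (0.95) and when unscaled (0.985). Both comparisons use the same control array. The genes were listed with earlier results of these arrays known, so the counts describe these arrays and do not test the list.

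**Figure D1:**
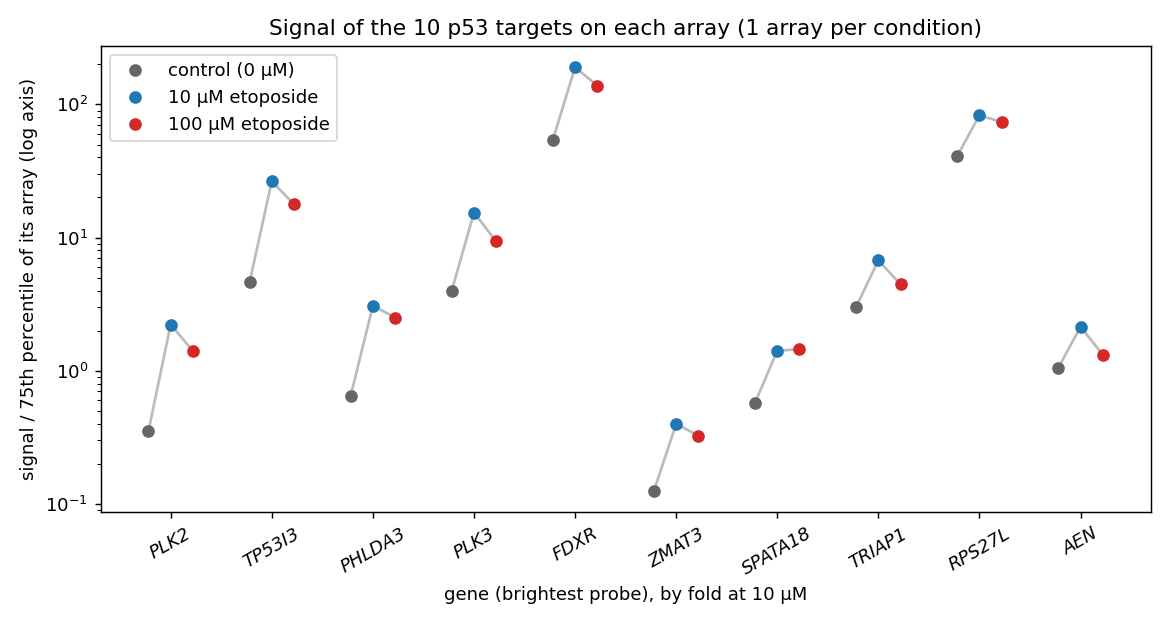
Signal of the brightest probe of each gene divided by the 75th percentile of its array (log axis), with 1 point per array and gray lines joining the arrays of a gene. The control point is the lowest of the 3 for all 10 genes and the 10 μM point is the highest for 9 of them, with SPATA18 the exception; heights of different genes are from different probes and cannot be compared.

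Of the genes with mitochondrial or redox roles, TP53I3 showed the largest increase. It encodes a quinone oxidoreductase-like enzyme linked to reactive oxygen species. Its brightest probe (NM_004881, hg18 chr2:24154008-24154067, minus strand) gave 2364.5 without etoposide, 14213 after the low dose and 7687 after the high dose. This was a 5.76-fold increase at the low dose and a 3.86-fold increase at the high dose (log2 2.53 and 1.95). Only 0.396% of genes with a fold change at the low dose ranked higher. The second probe lies across a splice junction, with ends 1742 bases apart in the genome (chr2:24154119-24155860). Its signals of 1444, 9704.5 and 5173 gave log2 fold changes of 2.69 and 2.09. The probes differed by 0.16 and 0.14 on the log2 scale, within 2 times their error (0.09 and 0.10). The 60-base probes are shown because they sample separate parts of the transcript.
TP53I3, brightest probe: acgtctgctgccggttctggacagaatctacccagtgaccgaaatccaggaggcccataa
TP53I3, junction probe: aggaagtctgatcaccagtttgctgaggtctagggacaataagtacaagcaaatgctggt

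The error used here is the spot-to-spot error of a log2 ratio. For ZMAT3, which was spotted 10 times, it was the error of the mean of its own spots. For the other 9 genes, spotted once per probe, it was the median SD between spots of the 50 repeated probes of nearest signal on the same array. The smaller error of ZMAT3 thus reflects averaging over its spots. Their SD on the log2 scale was 0.0746 for control, 0.055 for the low dose and 0.0469 for the high dose. The error ranged from 0.02 to 0.09 among the member probes. It does not cover variation from culture, RNA preparation or labeling.

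FDXR encodes ferredoxin reductase, which passes electrons from NADPH to the ferredoxins of mitochondria for steroid and iron-sulfur cluster synthesis. Its signal (NM_004110, chr17:70370245-70370304) was 27768 without etoposide, 102361 after the low dose and 59825 after the high dose. The increase was 3.53-fold at the low dose and 2.56-fold after the high dose. The treated arrays were both above control, and the low dose was 1.38-fold above the high dose.

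TRIAP1 encodes a small mitochondrial protein that works with PRELI-domain proteins in lipid transfer and restrains apoptosis. It had a signal of 1545, 3621 and 1921 in control, low and high dose cells (NM_016399, chr12:119366407-119366466). The increase was 2.25-fold at the low dose, and the signal was 1.48-fold control at the high dose. At the high dose 19.4% of genes with a fold change ranked higher than TRIAP1, compared with 2.4% at the low dose.

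SPATA18, also known as MIEAP, takes part in the clearance of damaged mitochondrial proteins. Its signals were 294.7 without etoposide, 756.8 after the low dose and 627.3 after the high dose (NM_145263, chr4:52657932-52657991). After scaling, the increases were 2.46-fold and 2.53-fold. It was the gene of the 10 with the smallest difference between doses, at a log2 ratio of -0.04 (spot error 0.07), and its ratio changed sign to as high as 0.27 under scalings that left the high dose array lower.

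Among the signaling genes, PLK2 had the largest increase of the 10 at the brightest probes. It lay within 2 times the spot error of TP53I3 at both doses. The dimmer TP53I3 probe (log2 2.69 and 2.09) was above PLK2 at both doses. With normexp TP53I3 (2.48 and 1.88) was also above PLK2 (2.31 and 1.699), as was PHLDA3 at the high dose (1.77). PLK2 and PLK3 are polo-like kinases that respond to stress, unlike PLK1, which drives mitosis. PLK2 (NM_006622, chr5:57785750-57785809) had a signal of 180, 1192 and 607.7 in control, low and high dose cells. This was a 6.35-fold increase at the low dose and 4.01-fold after the high dose. PLK3 (NM_004073, chr1:45044181-45044241) rose from 2043.5 to 8271 at the low dose, or 3.88-fold. At the high dose its signal was 4045, or 2.35-fold control. Of the 10 genes it had the largest ratio between doses, 1.65-fold, followed by AEN and PLK2, and these did not differ from it beyond the spot error. TRIAP1, TP53I3, FDXR, PHLDA3, ZMAT3 and RPS27L came next. Each of these also lay within 2 times the spot error of the gene just above it. With normexp the ratio of AEN (log2 0.73) was above that of PLK3 (0.71).

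PHLDA3 encodes a pleckstrin homology protein that competes with AKT for membrane lipids. Its signal (NM_012396, chr1:199701729-199701788) was 331 without etoposide, 1652 after the low dose and 1083 after the high dose. The increases were 4.78-fold and 3.89-fold. At the high dose PLK2, PHLDA3 and TP53I3 were within 2 times the spot error of each other.

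In the group with RNA, nuclease and ribosome roles, ZMAT3 had the largest increase at each dose. ZMAT3 (WIG1) is a zinc finger protein that binds RNA and influences splicing and mRNA stability. Its probe (NM_022470, chr3:180224855-180224914) was spotted 10 times. The spots ran from 59 to 69.45 with a median of 65.42 without etoposide, from 202.4 to 224.2 with a median of 212.9 after the low dose, and from 130.1 to 144.4 with a median of 142.7 after the high dose. The spots of the 3 arrays did not overlap before scaling. The mean was 3.19-fold higher at the low dose (log2 1.67, spot error 0.03), and at the high dose the log2 fold change was 1.38 (spot error 0.03). With normexp background correction, which affects dim probes most, its log2 fold changes were 1.06 and 0.91, so ZMAT3 was then no longer above 3-fold.

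AEN encodes an exonuclease that can degrade DNA and RNA during apoptosis. Its brightest probe (NM_022767, chr15:86975904-86975963) had a signal of 539.6, 1146 and 570 in control, low and high dose cells. It rose 2.04-fold at the low dose and was 1.25-fold control at the high dose (log2 0.33, spot error 0.08), where 32.9% of genes ranked higher. Its second probe had signals of 264.1, 526 and 303.5, and gave log2 fold changes of 0.93 and 0.45. The low-to-high log2 ratio was 0.70 at the brighter probe and 0.48 at the dimmer one, a difference of 0.21 with an error of 0.10, so the size of the dose difference depends on the probe. Over the 7 scalings its high dose value ran from 0.04 to 0.39.

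RPS27L encodes a ribosomal protein that differs little from RPS27 and that acts in the MDM2-p53 loop. Its signal (NM_015920, chr15:61234919-61234978) was 20935 without etoposide, 44623 after the low dose and 31822 after the high dose. The signal rose 2.04-fold at the low dose and was 1.81-fold control at the high dose. RPS27, its paralog, had signals of 175606, 183150 and 154471, with log2 fold changes of -0.00 and 0.06 (spot error 0.06). Because the paralogs are so alike, both probes are shown, with capitals for the bases that differ where the probes overlap.
RPS27L probe: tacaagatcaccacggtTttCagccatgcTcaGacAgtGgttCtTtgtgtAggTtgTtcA
RPS27 probe: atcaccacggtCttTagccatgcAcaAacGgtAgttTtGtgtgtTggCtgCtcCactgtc
The RPS27 probe starts 6 bases into the RPS27L probe. Over the 54 overlapping bases, 42 were identical (77.8%) and 12 differed. The amount of RPS27 transcript that binds the RPS27L probe was not measured on these arrays.

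**Figure D2:**
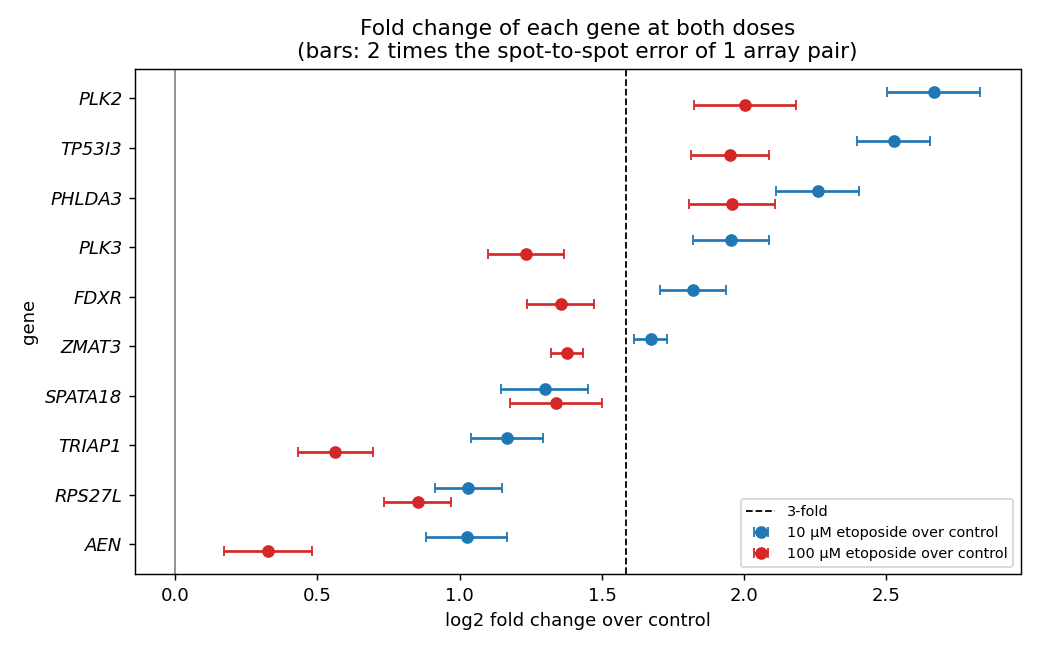
Log2 fold change over control at 10 μM (blue) and 100 μM (red) for each gene, with bars of 2 times the spot-to-spot error and a dashed line at 3-fold. At 10 μM 6 genes lie right of the line and at 100 μM 3 do, and for SPATA18 the points of both doses lie within the bars.

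The order of the genes differed between the doses. At the low dose it ran from PLK2 (log2 2.67) through TP53I3, PHLDA3, PLK3, FDXR, ZMAT3, SPATA18 and TRIAP1 to RPS27L and AEN (both 1.03). Neighbors in that order lay within 2 times the spot error of each other for PLK2 and TP53I3, for PLK3 and FDXR, and for each neighboring pair from SPATA18 to AEN. At the high dose PLK3 stood seventh and SPATA18 sixth. There the genes formed an upper set of PLK2, PHLDA3 and TP53I3, a middle set of ZMAT3, FDXR, SPATA18 and PLK3 whose neighbors were not separated by the spot error, and then RPS27L, TRIAP1 and AEN, each separated from the one above it. These orders changed with normexp background correction. ZMAT3 at the high dose (0.91) was then below FDXR (1.22), PLK3 (1.16) and SPATA18 (1.13). At the low dose ZMAT3 (1.06) was below TRIAP1 (1.19) and SPATA18 (1.12), and TP53I3 was above PLK2. TP53I3 and PHLDA3 were both above PLK2 at the high dose.

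Compared directly, 9 of the 10 genes had more signal after the low than after the high dose, against 39.8% of 16791 genes tested. None was more than 2-fold higher, the threshold the study used between doses, and 3.64% of all genes were. The median log2 ratio was 0.52, compared with -0.09 over all genes well above background on all arrays. The ratio exceeded 2 times its spot error, which leaves out variation between arrays, for 9 of the 10 genes. The share of all genes past that limit was not computed. On the log2 scale the increase at the high dose was 31.9% of that at the low dose for AEN, 48.2% for TRIAP1 and 63.1% for PLK3. It was 74.5% to 77.2% for FDXR, PLK2 and TP53I3, and 82.4% to 86.7% for ZMAT3, RPS27L and PHLDA3. For SPATA18 it was 103%. Over the 7 scalings this share ran from 3.93% to 38.2% for AEN, from 24.0% to 53.8% for TRIAP1 and from 48.8% to 66.5% for PLK3, and for SPATA18 from 80.1% to 108%. For RPS27L the share ran from 55.3% to 89.4%, for FDXR from 58.8% to 78.2% and for ZMAT3 from 65.2% to 86.5%. The groups named above thus depend on the scaling. Unscaled, RPS27L (55.3%) was below FDXR (58.8%), PLK2 (64.4%) and TP53I3 (65.7%). The median of all genes between the doses moved by 0.31 when no scaling was applied, by 0.27 with scaling to the median and by 0.22 with scaling to the spike-ins. Under these 3 scalings all 10 genes were higher at the low dose, as were 69.1%, 65.5% and 61.7% of all genes tested. Without scaling PLK3 and AEN were more than 2-fold higher (log2 1.03 and 1.01), as were 5.97% of all genes tested.

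**Figure D3:**
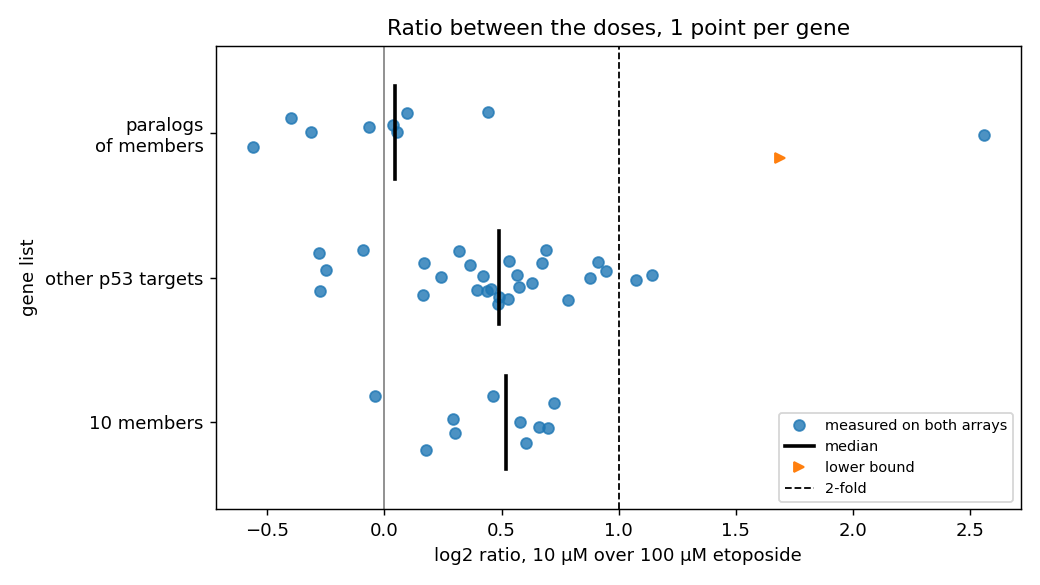
Log2 ratio of 10 μM over 100 μM etoposide, with 1 point per gene for the 10 genes, the other p53 targets and the paralogs of the 10 (triangle, a lower bound; black bar, the list's median; dashed line, 2-fold). The 10 genes lie between -0.04 and 0.72, all left of the line, and PLK1 (2.56) and PLK4 (at least 1.69) lie right of it among the paralogs.

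A list of 30 other established p53 targets was used for comparison. Of these, 28 were measured, and PMAIP1 and CMBL were not well above background on any array. After the low dose 15 of the 28 exceeded control by more than 2-fold and 10 by more than 3-fold, and after the high dose 9 and 5 did. The highest at the low dose were BTG2 (log2 3.34), an antiproliferative gene, CDKN1A (2.99), the p21 inhibitor of cyclin-dependent kinases, and MDM2 (2.81), the ubiquitin ligase of p53. The lowest were SESN2 (0.07), CCNG1 (0.09) and KITLG (0.28), none past 2-fold. At the high dose 24 of the 28 were above control and 4 were below it. These 4 were SESN2 (-0.56), CCNG1 (-0.37), TNFRSF10B (-0.17) and KITLG (-0.14). The range of these genes, from 0.07 to 3.34, took in the whole range of the 10, from 1.03 to 2.67. Between the doses 24 of the 28 were higher at the low dose, with a median log2 ratio of 0.49, and 2 (MDM2 and PPM1D, the latter a phosphatase that acts on p53) were more than 2-fold higher. For MDM2 this held at the brightest of its 3 probes (2.21-fold) but not at the others (1.76-fold and 1.62-fold), which also gave smaller log2 fold changes over control at the low dose (2.29 and 1.84). Conversely, a dimmer probe of POLH (2.44-fold) and of EDA2R (2.89-fold) passed 2-fold between the doses. The brightest probes of these genes did not (1.61-fold and 0.94-fold). The brightest probe of TP53INP1 (log2 2.76), named after its value was seen, was within the spot error of that of MDM2.

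Of 12 listed paralogs of the 10 genes, 10 were well above background on at least 1 array, and 1 of these exceeded control by more than 2-fold after the low dose. This was PHLDA2, an imprinted relative of PHLDA3, whose signals of 2549, 5431 and 3221 gave log2 fold changes of 1.03 and 0.59. PHLDA1 had signals of 280.4, 306.4 and 240.9, with log2 fold changes of 0.07 and 0.03. PLK1, the mitotic kinase, had signals of 1111, 704.7 and 96.4. It was lower than control by 0.72 on the log2 scale at the low dose and fell by 3.28 after the high dose, where its second probe fell by 2.33. PLK4, which controls centriole duplication, had signals of 74.2 and 86.5 in control and low dose cells and was not well above background at the high dose, where it fell by at least 1.53 on the log2 scale. The polo-like kinases thus split at the high dose, with PLK2 and PLK3 above control and PLK1 and PLK4 below it. ISG20, a nuclease related to AEN, was higher at the high dose (log2 1.16) than at the low dose (0.60), the opposite order to AEN. ISG20L2, ZMAT2, ZMAT5 and CRYZ, the last a quinone reductase related to TP53I3, had log2 fold changes between -0.40 and 0.15 at both doses at their brightest probes. The second CRYZ probe gave -0.47 at the low dose. ZMAT1 and ZMAT4 were not well above background.

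Genes that act with members of the set were also read. FDX1 and FDX2, the ferredoxins that receive electrons from FDXR, had log2 fold changes of -0.26 and 0.05 at the low dose, and of -0.13 and 0.31 after the high dose. CYP11A1, the cholesterol side-chain cleavage enzyme that this electron chain serves, had dim signals of 56.5, 68.8 and 96.6, and was 2.03-fold control at the high dose. PRELID1, the lipid transfer partner of TRIAP1, was at -0.24 and -0.34. BNIP3 and BNIP3L, mitochondrial proteins reported to act with SPATA18, were between -0.10 and 0.32 at their brightest probes. The second BNIP3L probe gave 0.47 at the high dose. None of these partners passed 2-fold at the low dose.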

How the data were processed

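Total RNA of HepG2 cells was labeled with Cy3 and hybridized to Agilent 4 × 44 K arrays, with 1 array per condition. Per the file headers and the labels, Feature Extraction 10.7.3.1 had subtracted the background and detrended each array, and the authors deposited this intensity without scaling between arrays. A table of the whole series held the same numbers for all 44495 spots. Probe coordinates were taken from the files (hg18). From the intensity, log2 values were averaged over the spots of a probe, without outlier spots, and each array's 75th percentile over its probes was subtracted. The brightest probe stood for a gene. Fold changes were taken where the brighter array was well above background, with dimmer signals raised to that array's lowest such signal. Folds of 3 over control and 2 between doses follow the study. The members and lists were chosen with earlier results of these data known. Named genes were all members, their paralogs and partners (1 listed gene is not reported here), the 3 highest and 3 lowest other targets, and the 3 genes nearest in pattern to each of the 2 members with the largest increase. MDM2 and PPM1D, PMAIP1 and CMBL, POLH and EDA2R, and TNFRSF10B were chosen after seeing their values. The scaling and fold steps were tested on simulated arrays with known changes, and the other calculations were not. Python 3.11.15, pandas 2.3.3, numpy 2.4.6, R 4.3.3 and limma 3.58.1 were used. Alternatives were other scalings, normexp (offset 50), other filters, probe rules and thresholds. The number of arrays limits the precision.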

Additional observations from a re-analysis of the deposited data

How the results depend on the processing

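No paired analysis was possible because there was 1 array per condition, and no array could be left out. No increase over control changed sign for any of the 10 genes under the 12 alternatives of processing, and of 360 member values 101 moved by more than the spot error. Some of these alternatives could hardly move the members. They were the filters on dim probes, the keeping of outlier spots and the table of the whole series, and no member value moved under them by more than the spot error. The mean of all probes could change only TP53I3 and AEN. The members above 3-fold (6 at the low dose, 3 at the high dose) were 10 and 7 at a 2-fold threshold and 3 and 1 at 4-fold. Between doses, 4 members passed 1.5-fold, 0 passed 2-fold, and 2 passed 2-fold without scaling. The shares of all genes past 4-fold over control and past 1.5-fold between doses were not computed. The counts at those limits therefore have no background to be read against. The members' median log2 fold change at the high dose (1.35) was 1.10 when unscaled, 1.06 when scaled to the median, 1.18 when scaled to the spike-ins and 1.14 with normexp, and at the low dose (1.75) it was 1.5 with normexp. Between doses (0.52) it was 0.83 when unscaled, 0.79 when scaled to the median, 0.75 when scaled to the spike-ins, 0.45 when the percentile took in all spots and 0.60 with normexp. Other p53 targets above 3-fold numbered 10 at the low dose (6 with normexp) and 5 at the high dose (3 without scaling, under median or spike-in scaling and with normexp). Those above 2-fold between doses numbered 2, and were 7 without scaling, 6 under median or spike-in scaling and 1 with the mean of all probes. The cause was not tested. PLK4 was not well above background at the high dose, so its fold changes there are bounds.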

Other observations

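The genes whose pair of log2 fold changes lay nearest to those of PLK2 and TP53I3 were sought among 12037 other genes that carry a RefSeq mRNA accession and were well above background throughout. The measure was the Euclidean distance over 2 ratios from 3 arrays, which share the control array. Nearest to PLK2 were ATG16L2 (distance 0.05), a relative of the autophagy gene ATG16L1, GPR109B (0.05, now named HCAR3), a hydroxycarboxylic acid receptor, and MR1 (0.12), which presents vitamin B metabolites to T cells. ATG16L2 had signals of 687.2, 4692 and 2296 in control, low and high dose cells. Nearest to TP53I3 were MR1 (0.06), with signals of 198.8, 1242 and 632.2, the cytidine deaminase gene APOBEC3F (0.11) and GLS2 (0.11), a mitochondrial glutaminase. GLS2 had signals of 92.57, 592.5 and 289.3, a 6.13-fold increase at the low dose and a 3.71-fold increase at the high dose. GPR109B and APOBEC3F have close relatives whose transcripts may bind the same probes.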
